A study of Mus musculus with 12 samples.

Results

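The genes described here are 7 genes of MHC class II antigen presentation, Cd74, H2-Aa, H2-Ab1, H2-Eb1, H2-DMa, H2-DMb1 and Ciita, out of 24394 annotated gene names in a study of enteric glia. They were chosen by name, with earlier results of these data known. For 5 of them the assembled locus carried that name alone, while Cd74 was found only as a locus merged with the microRNA gene Mir5107 and H2-DMa only as one merged with the pseudogene Gm20493. Of the 7 genes, 6 reached 1 FPKM (fragments per kilobase of transcript, scaled to the fragments mapped in the library) in at least 3 libraries and entered the tests. Ciita reached it in 2 libraries and is described by its values.

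MHC class II molecules present peptides from endocytosed protein to CD4+ T cells. An alpha and a beta chain pair in the endoplasmic reticulum with the invariant chain, the product of Cd74, which is then cut by lysosomal proteases down to a short peptide in the groove. The DM heterodimer removes that peptide and lets others bind. Dendritic cells, B cells and macrophages make class II constantly, and in many other cell types, glia among them, interferon gamma can induce it through CIITA, the coactivator that switches on the class II promoters.

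The RNA came from ribosomes of the distal colon's myenteric plexus, the nerve network between the muscle layers, in 12 C57BL/6 mice of the genotype Sox10::CreERT2+/- / Rpl22tm1.1Psam/J. In every group tamoxifen in the chow (400 mg/kg, 2 weeks, then 1 week of plain chow) activated the Cre in cells that use the Sox10 promoter, which tags their ribosomal protein Rpl22 with HA, and HA-bound ribosomes were precipitated. The 4 groups held 3 libraries each. DNBS_GR159897 mice had an enema of 5 mg of DNBS (a hapten that causes colitis) in 50% ethanol and daily injections of the neurokinin-2 receptor antagonist GR159897 (0.5 mg/kg in 0.1% DMSO). DNBS_Vehicle mice had the same enema and 0.1% DMSO alone. Saline_GR159897 mice had 0.1 ml of saline as the enema and the antagonist, and Saline_Vehicle mice saline and 0.1% DMSO. Injections began 24 hours before the enema and ran over 3 days, and tissue was taken 48 hours after the enema. The labels list no ethanol for the saline enema, so DNBS and ethanol cannot be told apart, and they give no age. Of the 12 mice 7 were male and 5 female.

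Between 10325 and 11157 genes per library reached 1 FPKM. The depth of the libraries is unknown, since FPKM carries no counts. Glial and other markers were summed per library. Smooth muscle markers summed to between 2826 and 3838 FPKM in Saline_Vehicle, and to more than the enteric glia markers in each of the 12 libraries. Which cells the class II RNA came from was not tested. Without Gfap, which has blank values in Saline_Vehicle, the enteric glia markers summed to between 132 and 610 FPKM in 11 libraries and to 8.94 FPKM in DNBS_GR159897 replicate 1. In that library the epithelial markers summed to 832 FPKM, against at most 17.5 FPKM in each of the other 11, and 22.6% of its summed FPKM lay on annotated loci. A second library stood apart in the class II genes themselves, Saline_GR159897 replicate 3, with 774 FPKM over the 7 genes. Results are given with both libraries and, where they rest on either, without them. A listed 0 is not read as absence, since Tbp, which every cell uses, is listed at 0 in Saline_GR159897 replicate 3 too.

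In GENCODE's GRCm38 annotation 5 of the 7 genes lie in the MHC region of chromosome 17: H2-DMa (ENSMUSG00000037649) at 34119541 to 34139101, H2-DMb1 (ENSMUSG00000079547) at 34153072 to 34160230, H2-Ab1 (ENSMUSG00000073421) at 34257689 to 34269419, H2-Aa (ENSMUSG00000036594) at 34282744 to 34287823 and H2-Eb1 (ENSMUSG00000060586) at 34305867 to 34316674. Ciita (ENSMUSG00000022504) lies on chromosome 16 at 10480059 to 10528418. All 7 genes are protein-coding, and H2-Aa alone of them is on the minus strand. Exons of H2-DMa share 360 bases with Brd2 and those of Ciita 329 bases with Dexi, each on the opposite strand, and no source states that strands were kept apart, so the values of these 2 genes are uncertain. H2-DMb1 is 95.7% identical to its neighbour H2-DMb2 over 1081 of 1404 bases, so fragments may have been split between them. Of 1171 bases of H2-Eb1, 201 are 89.1% identical to H2-Ab1.

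Class II promoters share an X box, bound by the RFX complex, and a Y box, an inverted CCAAT element bound by NF-Y, upstream of the start site, and CIITA docks on the proteins bound there. The 250 bases before the start of 3 genes that show this arrangement in whole or in part are printed. Whether these motifs bear on the levels of the tested genes was not tested. Sequences are from RefSeq on GRCm38.p6, read 5′ to 3′ on the gene's strand, and capitals mark matches to the X box letters (CTNGNAA followed at once by CNGNTG) or to the Y box core CCAAT on either strand (ATTGG where inverted). The H2-Eb1 window is chr17:34305617-34305866 on the plus strand, that of H2-DMb1 chr17:34152941-34153190 on the plus strand and that of H2-Aa chr17:34287824-34288073 on the minus strand.
H2-Eb1: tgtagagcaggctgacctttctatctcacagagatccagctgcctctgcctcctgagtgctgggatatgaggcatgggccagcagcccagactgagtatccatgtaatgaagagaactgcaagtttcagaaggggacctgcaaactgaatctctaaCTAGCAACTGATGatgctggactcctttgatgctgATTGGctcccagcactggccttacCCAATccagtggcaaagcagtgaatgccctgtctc
H2-DMb1: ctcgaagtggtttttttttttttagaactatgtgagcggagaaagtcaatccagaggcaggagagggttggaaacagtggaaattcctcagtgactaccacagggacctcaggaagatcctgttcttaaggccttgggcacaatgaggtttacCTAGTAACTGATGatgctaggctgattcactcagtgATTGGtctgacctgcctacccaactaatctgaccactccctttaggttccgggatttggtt
H2-Aa: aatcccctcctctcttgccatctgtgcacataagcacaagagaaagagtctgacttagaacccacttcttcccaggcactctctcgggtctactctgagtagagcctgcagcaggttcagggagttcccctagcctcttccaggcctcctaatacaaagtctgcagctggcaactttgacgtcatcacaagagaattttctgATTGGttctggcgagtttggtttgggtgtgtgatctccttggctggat

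In the H2-Eb1 promoter the X box match runs from 94 to 82 bases before the start, with ATTGG 22 bases further on and a CCAAT at 35 to 31 bases before the start. In the H2-DMb1 promoter it runs from 97 to 85 bases before the start, with ATTGG 23 bases further on. The H2-Aa window holds ATTGG at 48 to 44 bases before the start and no match to the X box letters, which says only that these letters are not in this window. Of 32851 promoters of that length, 33.8% hold the Y box core, 0.314% the X box letters and 0.143% both, so the Y box core alone is common. The 47 promoters with both carry 40 names, and 2 of these begin with H2-. The promoter table matched 4 of the 7 genes. For H2-DMa, the window followed by bases found in a known transcript of the gene holds neither motif. Another H2-DMa window, without such a match, holds ATTGG at 198 to 194 bases before its start and no X box letters.

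In the Saline_Vehicle libraries, which had neither DNBS nor the antagonist, the invariant chain and the A beta chain were the most abundant of the 7. Cd74 averaged 47.8 ± 20.3 FPKM and H2-Ab1 42.7 ± 20.7 FPKM (SD, n = 3 each, as for the other levels). H2-Eb1, the E beta chain, followed at 19.2 ± 4.22 FPKM and H2-Aa, the A alpha chain, at 13.6 ± 3.88 FPKM. C57BL/6 mice carry a defective E alpha gene, so their E beta chain is not known to reach the surface in a pair. The editing factors were lower, H2-DMb1 at 9.01 ± 3.43 FPKM and H2-DMa at 7.05 ± 2.87 FPKM. Each of these neighbours overlapped in range, so their order is not resolved one by one. Ciita was at 0.10, 2.94 and 0.08 FPKM, below the range of H2-DMa, which was 3.87 to 9.43 FPKM.

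Cd74 (ENSMUSG00000024610, chromosome 18, 60803848 to 60812652, GRCm38) encodes the invariant chain. It had 2.11, 7.76 and 2.41 FPKM in DNBS_GR159897 libraries (replicates 1, 2 and 3, an order kept throughout), 21.2, 0.08 and 13.1 FPKM in DNBS_Vehicle, 16.4, 8.43 and 103 FPKM in Saline_GR159897, against 39.6, 70.9 and 33.0 FPKM in Saline_Vehicle. At this annotated locus all 3 libraries of each DNBS group lay below all 3 of its saline group. The lowest of all 12 libraries there was DNBS_Vehicle replicate 2, almost without signal. With another locus that carries the name added, DNBS_GR159897 replicate 2 had 12.1 FPKM, above the 8.79 FPKM of Saline_GR159897 replicate 2. The groups of the antagonist arm then overlapped.

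H2-Aa, the A alpha chain, had 4.86, 5.21 and 2.02 FPKM in DNBS_GR159897, 0.36, 2.00 and 1.70 FPKM in DNBS_Vehicle, 10.3, 6.19 and 89.0 FPKM in Saline_GR159897, against 12.0, 10.8 and 18.1 FPKM in Saline_Vehicle. Here too both DNBS groups lay wholly below their saline groups, and at this annotated locus the highest of the 6 DNBS libraries stayed under the lowest of the 6 saline ones. With 2 other loci that carry the name added, DNBS_GR159897 replicate 1 had 20.9 FPKM, above 5 of the 6 saline libraries. H2-Ab1, its beta chain partner, had 18.7, 11.1 and 0.10 FPKM in DNBS_GR159897, 9.56, 3.72 and 14.8 FPKM in DNBS_Vehicle, 36.6, 9.15 and 368 FPKM in Saline_GR159897, against 20.3, 46.6 and 61.1 FPKM in Saline_Vehicle. DNBS_Vehicle lay below Saline_Vehicle throughout, while in the antagonist arm the groups overlapped through Saline_GR159897 replicate 2. H2-Eb1, the E beta chain, had 1.16, 6.94 and 5.60 FPKM in DNBS_GR159897, 6.81, 1.50 and 5.65 FPKM in DNBS_Vehicle, 17.1, 0.26 and 138 FPKM in Saline_GR159897, against 15.0, 23.4 and 19.3 FPKM in Saline_Vehicle. Its Saline_GR159897 group held both the highest and the lowest value of all 12 libraries.

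H2-DMa, the alpha chain of the peptide editor, had 2.91, 3.88 and 1.03 FPKM in DNBS_GR159897, 4.22, 2.26 and 3.11 FPKM in DNBS_Vehicle, 7.69, 2.50 and 33.2 FPKM in Saline_GR159897, against 9.43, 7.85 and 3.87 FPKM in Saline_Vehicle. Its groups overlapped in both arms. H2-DMb1, the other chain of the editor, had 5.18, 3.58 and 9.82 FPKM in DNBS_GR159897, 0.95, 0.29 and 3.46 FPKM in DNBS_Vehicle, 9.45, 2.58 and 40.6 FPKM in Saline_GR159897, against 5.30, 12.1 and 9.66 FPKM in Saline_Vehicle. At this annotated locus DNBS_Vehicle held the 2 lowest values and lay wholly below both Saline_Vehicle and DNBS_GR159897. With another locus that carries the name added, DNBS_Vehicle replicate 1 had 3.69 FPKM, above the 3.58 FPKM of DNBS_GR159897 replicate 2.

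Ciita, the coactivator, had 0.03, 0.02 and 0.00 FPKM in DNBS_GR159897 and was listed at 0 in all 3 DNBS_Vehicle libraries. Its values were 0.25, 0.03 and 2.81 FPKM in Saline_GR159897. In Saline_Vehicle they were 0.10, 2.94 and 0.08 FPKM. Both values above 1 FPKM were thus in saline libraries, and one of these was Saline_GR159897 replicate 3. When all annotated genes were tested without a filter, its averaged DNBS change had an adjusted p of 0.354 (limma), so no change of Ciita was detectable at these levels.

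**Figure D1:**
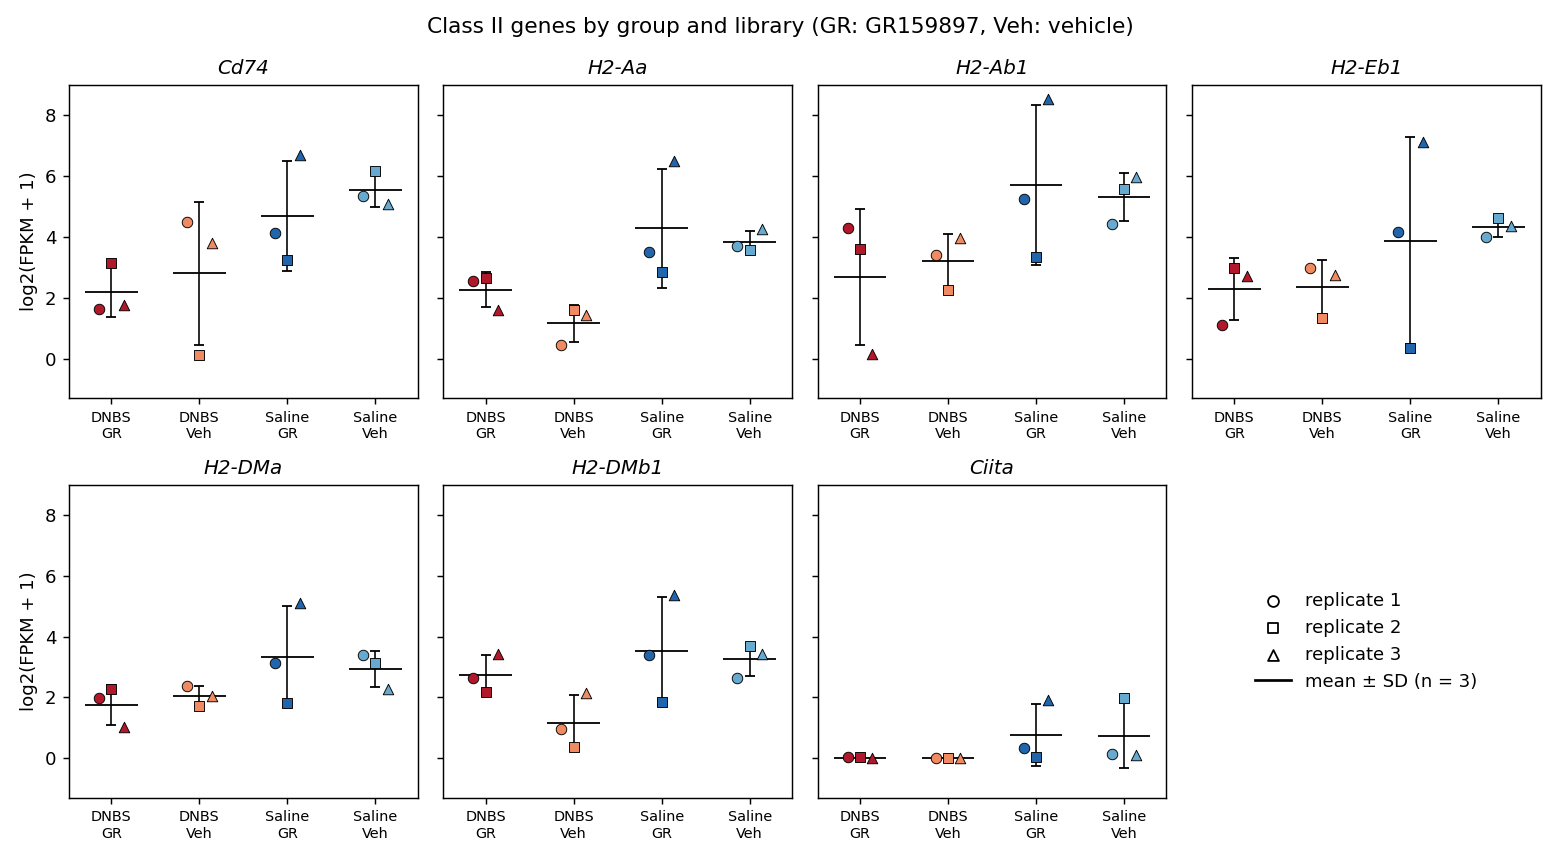
Levels of the 7 class II genes as log2(FPKM + 1), 1 panel per gene, with the groups DNBS_GR159897, DNBS_Vehicle, Saline_GR159897 and Saline_Vehicle from left to right. Each point is 1 library, the marker shape its replicate number, the bar the group mean and the whisker the SD (n = 3). For H2-Aa, at its annotated locus, the 6 DNBS libraries lie between 0.36 and 5.21 FPKM and the 6 saline libraries between 6.19 and 89.0 FPKM.

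One library dominated the saline arm with antagonist. Saline_GR159897 replicate 3 held the highest value of all 12 libraries for 6 of the 7 genes, by 6.01 times over the next highest for H2-Ab1, 5.90 times for H2-Eb1, 4.93 times for H2-Aa, 3.53 times for H2-DMa, 3.36 times for H2-DMb1 and 1.45 times for Cd74. For Ciita it came second. The 7 genes together summed to 97.7, 29.1 and 774 FPKM in Saline_GR159897, against 102, 175 and 145 FPKM in Saline_Vehicle. The other 2 Saline_GR159897 libraries therefore lay below all 3 Saline_Vehicle libraries in that sum.

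Some interferon-induced GTPases were also highest in that library and others were not. Gbp2 was at 126 FPKM, against at most 98.3 FPKM in any other, Gbp3 at 30.1 FPKM, against at most 20.3 FPKM, and the merged locus of Igtp and Irgm2 at 63.1 FPKM, against at most 14.9 FPKM. Irgm1 had 46.5 FPKM there, against 54.4 FPKM in its highest library, Tgtp2 8.85 FPKM, against 14.2 FPKM, and the merged locus of Ifi47 0.19 FPKM, against 2.84 FPKM. These 6 loci were singled out here after their values were seen. The interferon gamma list of 14 measured genes summed to 408 FPKM there, the highest of all libraries. Markers of other cell types were also read in that library. All 5 B cell markers, among them Ms4a1, Cd79a, Cd79b and Pax5, were listed at 0 there. That does not set it apart, since they summed to at most 0.02 FPKM in the other saline libraries. Of 8 dendritic cell markers Itgax, Flt3, Xcr1, Cd209a and the merged locus of Clec9a were listed at 0, and their list summed to 0.93 FPKM, nearly all of it Sirpa. The dendritic cell markers listed at 0 there reached at most 0.95 FPKM in any library. The 13 macrophage markers summed to 48.5 FPKM, the lowest of the 12 libraries, of which Lyz2 made up 34.3 FPKM, with Csf1r listed at 0 and Adgre1 at 0.27 FPKM. C1qa at 4.65 FPKM, Aif1 at 3.55 FPKM and Cd68 at 2.30 FPKM were each the highest of the 6 saline libraries, where the other 5 reached at most 2.93, 2.65 and 1.69 FPKM. The 5 general leukocyte markers summed to 8.49 FPKM, with Ptprc at 0.22 FPKM, against at most 0.21 FPKM in the other saline libraries. The neutrophil markers summed to 12.1 FPKM, against at most 0.64 FPKM in the other saline libraries. The mouse was female, as were 2 of DNBS_GR159897 and 1 each of DNBS_Vehicle and Saline_Vehicle. The part of any of these in the class II level of the library was not tested.

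The levels of the 6 tested genes were correlated across libraries. Over the 15 pairs of the 6 tested genes Pearson's r of log2(FPKM + 1) ran from 0.63 to 0.88, with a median of 0.78 (12 libraries, which differ in group and in makeup, and which the pairs share). The closest pair was H2-Ab1 and H2-DMa, and the least close H2-Ab1 and H2-DMb1. Ratios between chains varied more than this: H2-Aa per H2-Ab1 lay between 0.23 and 0.59 in Saline_Vehicle, and was 0.04 in DNBS_Vehicle replicate 1. In DNBS_GR159897 replicate 3 it was 20.2, through the near absence of H2-Ab1 signal.

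The first comparison asks how the genes differed 48 hours after DNBS without the antagonist. All 6 tested genes had lower values in DNBS_Vehicle than in Saline_Vehicle, and 0 of 6 passed the threshold of 0.05 after Benjamini-Hochberg adjustment over all genes (limma on log2(FPKM + 1)). In that comparison 0.321% of 12777 genes passed, and 0.0861% passed as lower. Cd74 averaged 11.5 ± 10.7 FPKM in DNBS_Vehicle and 47.8 ± 20.3 FPKM in Saline_Vehicle, a log2 fold change of −2.73 ± 1.07 (SE, adjusted p = 0.314). H2-Aa averaged 1.35 ± 0.87 FPKM in DNBS_Vehicle and 13.6 ± 3.88 FPKM in Saline_Vehicle, a change of −2.69 ± 0.76 (adjusted p = 0.18). H2-DMb1 was at −2.10 ± 0.76 (adjusted p = 0.275). These 3 also had an unadjusted p under 0.05, where 7.75% of all genes were lower by that rule. The changes of H2-Ab1, H2-Eb1 and H2-DMa were −2.11, −1.98 and −0.90, with adjusted p of 0.528, 0.559 and 0.636.

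In this comparison 5 of 6 genes had non-overlapping groups with DNBS_Vehicle lower, all but H2-DMa, against 14.9% of all genes. A log2 fold change below 0 was seen in 56.8% of all genes. The median over the 6 genes was −2.10 and that over all genes −0.11. Without Saline_GR159897 replicate 3, which enters only through the shared spread, H2-Aa passed (−2.69, adjusted p = 0.0423).

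The second comparison asks the same with the antagonist. Again all 6 genes had lower values in DNBS_GR159897 than in Saline_GR159897 and 0 of 6 passed, where 1.38% of all genes passed and 0.994% passed as lower. H2-Ab1 averaged 9.96 ± 9.34 FPKM in DNBS_GR159897 and 138 ± 200 FPKM in Saline_GR159897. Its log2 fold change was −3.02 ± 1.25 (SE, adjusted p = 0.18). Cd74 was at −2.51 ± 1.07 (adjusted p = 0.19), H2-Aa at −2.02 ± 0.76 (adjusted p = 0.146) and H2-DMa at −1.58 ± 0.68 (adjusted p = 0.193). These 4 had an unadjusted p under 0.05, against 16.9% of all genes as lower. H2-Eb1 was at −1.60 (adjusted p = 0.464) and H2-DMb1 at −0.78 (adjusted p = 0.557). Cd74 and H2-Aa, 2 of 6, had non-overlapping groups at their annotated loci, against 17.6% of all genes, and 62.4% of all genes had a change below 0.

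The size of these changes rested on the Saline_GR159897 libraries. Without Saline_GR159897 replicate 3 they were −1.61 for H2-Ab1, −1.50 for Cd74, −0.91 for H2-Aa and −0.70 for H2-DMa, while H2-Eb1 was at 0.02 and H2-DMb1 at 0.14. The adjusted p then ran from 0.352 for H2-Aa to 0.992 for H2-Eb1. With Saline_GR159897 replicate 2 left out in its place, H2-Eb1 was at −3.37 (adjusted p = 0.0741).

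Averaged over both drug arms, which uses all 12 libraries, H2-Aa and Cd74 fell. H2-Aa had a log2 fold change of −2.35 ± 0.54 (95% interval −3.51 to −1.19, adjusted p = 0.0216) and, at its annotated locus, was lower in 6 of 6 DNBS libraries than in every saline library. Cd74 had one of −2.62 ± 0.75 (95% interval −4.25 to −0.99, adjusted p = 0.0476), with non-overlapping groups in each arm at its annotated locus. The other 4 had lower values that did not pass: H2-Ab1 −2.56 ± 0.88 (adjusted p = 0.0839), H2-DMb1 −1.44 ± 0.54 (adjusted p = 0.103), H2-DMa −1.24 ± 0.48 (adjusted p = 0.116) and H2-Eb1 −1.79 ± 0.89 (adjusted p = 0.212). So 2 of 6 passed as lower, where 9.6% of all genes passed, 6.83% as lower and 2.76% as higher, and 61.2% had a change below 0. In both arms at once 2 of 6 genes had non-overlapping groups at the annotated loci, against 6.69% of all genes. With all loci of a name summed, H2-Aa and Cd74 overlapped in the antagonist arm. The median over the 6 genes was −2.07, and that over all genes −0.18.

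H2-Aa passed in 11 of 12 fits that left out 1 library each (adjusted p of 0.014 to 0.06), and was lost without Saline_Vehicle replicate 3. Its call was also lost without a filter (adjusted p = 0.0612) and with all loci of a name summed (−1.98, adjusted p = 0.0783), and the summed loci put its change in DNBS_GR159897 over Saline_GR159897 at −1.27, beside −2.02. Without Saline_GR159897 replicate 3 its averaged change was −1.80 (adjusted p = 0.0195), and without both libraries that stood apart −1.87 (adjusted p = 0.0151). Cd74 passed in 3 of 12 such fits, those without DNBS_GR159897 replicate 2, DNBS_Vehicle replicate 1 or Saline_GR159897 replicate 2 (adjusted p of 0.0365 to 0.0972 over the 12). Without Saline_GR159897 replicate 3 it was at −2.12 (adjusted p = 0.0965) and without DNBS_GR159897 replicate 1 at −2.48 (adjusted p = 0.0972). Without Saline_GR159897 replicate 2, the low library of its group, all 6 genes passed, with H2-Eb1 at −2.67 (adjusted p = 0.0207), where 8.75% of all genes passed. In bulk RNA of this kind, fewer cells of a type and less RNA per cell cannot be told apart.

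**Figure D2:**
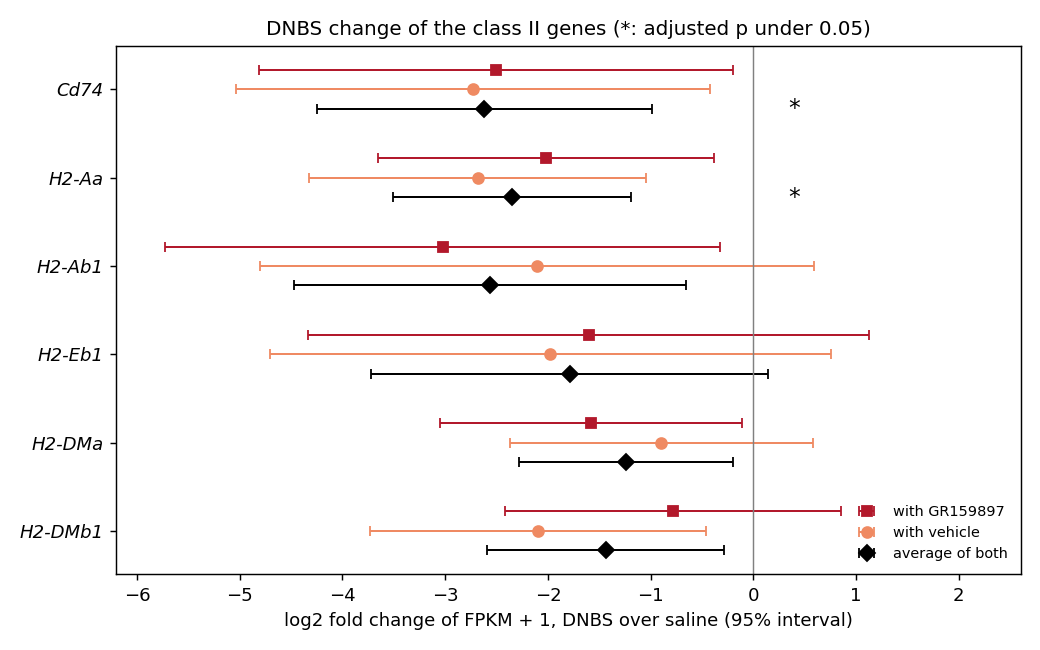
Log2 fold change of FPKM + 1, DNBS over saline, for the 6 tested class II genes with GR159897 (squares), with vehicle (circles) and averaged over both (diamonds). Whiskers are 95% intervals from limma and an asterisk marks an adjusted p under 0.05. All 18 points lie below 0, and the asterisks stand at the averages of Cd74 (−2.62) and H2-Aa (−2.35).

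**Figure D3:**
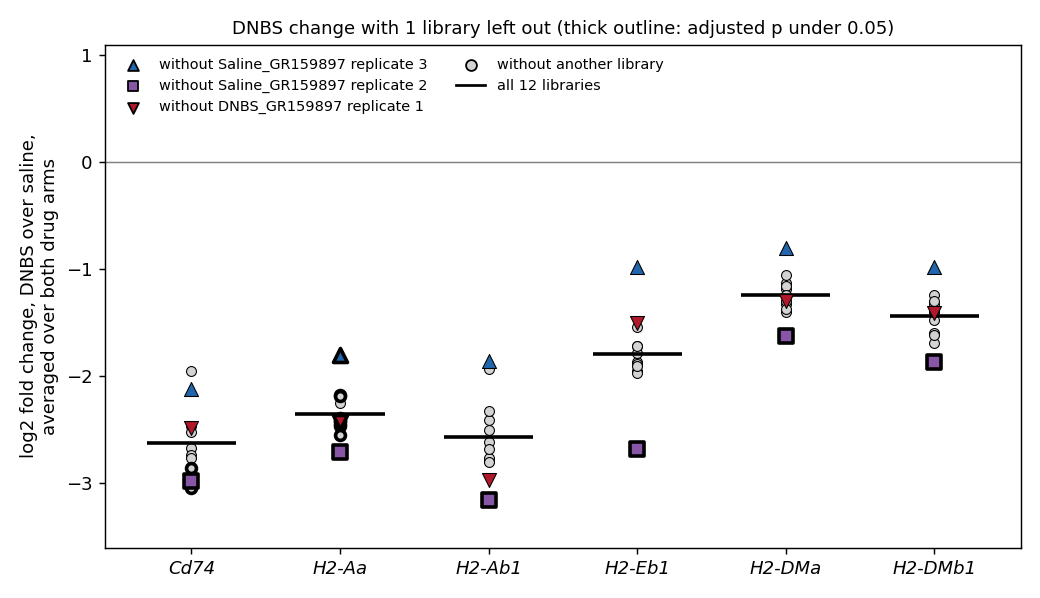
Averaged log2 fold change, DNBS over saline, of the 6 tested class II genes when each of the 12 libraries is left out in turn. The line is the value with all 12, and a thick outline marks an adjusted p under 0.05. H2-Eb1 moves most, between −2.67 without Saline_GR159897 replicate 2 and −0.98 without Saline_GR159897 replicate 3.

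The antagonist alone gave no detectable change. Between Saline_GR159897 and Saline_Vehicle 0 of 6 genes passed, as did 0% of all 12777 genes (limma; 216 genes, 1.69% and 0 of the 6, had an unadjusted p below 0.05). The changes were −0.85 for Cd74, 0.44 for H2-Aa, 0.39 for H2-Ab1, −0.44 for H2-Eb1, 0.40 for H2-DMa and 0.28 for H2-DMb1, each with an adjusted p of 1. The intervals were wide: that of H2-Aa ran from −1.20 to 2.08 and that of H2-Eb1 from −3.17 to 2.29. Without Saline_GR159897 replicate 3 all 6 changes were below 0 (with all libraries 2 of 6 were, and 53.1% of all genes), from −2.06 for H2-Eb1 to −0.47 for H2-DMa, with an adjusted p of 1 each.

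Within DNBS mice the H2-Aa and H2-DMb1 values were higher with the antagonist, but no gene passed. H2-DMb1 averaged 6.19 ± 3.24 FPKM in DNBS_GR159897 and 1.57 ± 1.67 FPKM in DNBS_Vehicle, a log2 fold change of 1.59 ± 0.76 (adjusted p = 0.616). H2-Aa averaged 4.03 ± 1.75 FPKM in DNBS_GR159897 and 1.35 ± 0.87 FPKM in DNBS_Vehicle, a change of 1.11 ± 0.76 (adjusted p = 0.638). For both the groups did not overlap at the annotated loci, which makes 2 of 6 genes against 3.19% of all genes. With all loci of a name summed the H2-DMb1 groups overlapped (DNBS_Vehicle replicate 1 at 3.69 FPKM, DNBS_GR159897 replicate 2 at 3.58 FPKM). The changes of the other 4 genes lay between −0.62 for Cd74 and −0.07 for H2-Eb1, with adjusted p of 0.845 to 0.99. By limma 0 of 6 genes and 0% of all genes passed, while 1039 genes, 8.13% and 0 of the 6, had an unadjusted p below 0.05.

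The interaction, the difference between the DNBS changes with and without the antagonist, was likewise not detectable. It ran from −0.92 for H2-Ab1 to 1.32 for H2-DMb1, with 0 of 6 genes and 0% of all genes past the threshold and adjusted p of 0.957 to 0.988 (limma; 457 genes, 3.58% and 0 of the 6, had an unadjusted p below 0.05). The 95% interval of H2-Aa ran from −1.65 to 2.98, so changes of several fold in either direction are within the error of 3 libraries per group.

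The median over all genes moved with the scaling and with 1 library. In DNBS_GR159897 against Saline_GR159897 it was −0.27 as deposited, −0.13 without DNBS_GR159897 replicate 1 and 0.025 with cyclic loess. With FPKM scaled to the annotated total it was 0.11 over the 16496 genes then tested and 0.017 over the 12777 genes of the fit as deposited. Averaged over both arms it was −0.18 as deposited and, over the same genes, −0.071 scaled to the annotated total and 0.022 with cyclic loess. The averaged change of H2-Aa was −2.52 (adjusted p = 0.0408) and −2.05 (adjusted p = 0.0358) with the annotated total and with cyclic loess, and that of Cd74 −2.85 (adjusted p = 0.102) and −2.16 (adjusted p = 0.0943). All 6 averaged changes stayed below 0 under both.

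The proteases and partners that act beside class II did not all follow it. Of 13 other measured genes of the pathway, among them H2-DMb2, the co-stimulators and the lysosomal enzymes, 6 could be tested. Averaged over both arms 5 of the 6 were lower, against 61.2% of all genes, and the median was −0.58. Of the 6, 1 rose, where 2.76% of all genes passed as higher, and 1 fell, where 6.83% passed as lower. Ctss, cathepsin S, which makes the final cuts in the invariant chain, had 23.2, 10.6 and 18.8 FPKM in DNBS_GR159897, 24.7, 10.4 and 7.33 FPKM in DNBS_Vehicle, 0.93, 0.85 and 0.70 FPKM in Saline_GR159897, against 2.78, 2.33 and 2.39 FPKM in Saline_Vehicle. All 6 DNBS libraries lay above all 6 saline libraries, the reverse of H2-Aa at its annotated locus, and its averaged change was 2.61 ± 0.31 (adjusted p = 0.00173). It also rose within the antagonist arm, by 3.28 in DNBS_GR159897 over Saline_GR159897 (adjusted p = 0.0152). Lgmn, the asparagine endopeptidase legumain, which cuts antigens and the invariant chain in lysosomes, fell by 2.02 ± 0.49 (adjusted p = 0.0267), with 8.84 to 55.7 FPKM in the DNBS libraries and 40.4 to 202 FPKM in the saline ones. Icosl, the ligand of the T cell co-stimulator ICOS, was at −0.79 (adjusted p = 0.0608). The number that fell in this list was 0 without Saline_GR159897 replicate 3 and 2 without DNBS_GR159897 replicate 1.

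The general factors of class II promoters showed no detectable change. Of 10 measured genes 7 were tested, 0 passed, and the median averaged change was −0.23, beside −0.18 over all genes. Rfxank, a subunit of the RFX complex, was at −0.59 (adjusted p = 0.312), Nfyc, a subunit of NF-Y, at −0.32 (adjusted p = 0.668), and Creb1, the CREB factor, at 0.42 (adjusted p = 0.427).

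Averaged over both arms, 13 of 13 tested genes that interferon gamma signals through or induces were lower after DNBS, against 61.2% of all genes. Of the 13, 5 fell, where 6.83% of all genes passed as lower, and the median averaged change was −0.91. In DNBS_Vehicle over Saline_Vehicle 11 of 13 were lower, in DNBS_GR159897 over Saline_GR159897 13 of 13, with 0 calls in each. Gbp3, a guanylate-binding protein, fell by 2.40 ± 0.44 (adjusted p = 0.00995), and Gbp2, another, fell by 3.13 ± 0.70 (adjusted p = 0.0209). The merged locus of Igtp and Irgm2, immunity-related GTPases, fell by 2.04 (adjusted p = 0.0215). Ifngr1, the ligand-binding receptor chain, fell by 1.43 (adjusted p = 0.0478). The list summed to between 53.9 and 76.4 FPKM in DNBS_GR159897, 77.3 and 110 FPKM in DNBS_Vehicle, 99.9 and 408 FPKM in Saline_GR159897, against 176 and 318 FPKM in Saline_Vehicle. The number that fell was 3 without Saline_GR159897 replicate 3 (12 of 13 lower), 4 without DNBS_GR159897 replicate 1 and 3 without both (11 of 13 lower each). Scaled to the annotated total 11 of 13 were lower, and 10 of 13 with cyclic loess.

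MHC class I presentation genes moved the same way. In each arm alone 10 of 10 tested were lower, with 0 calls. Averaged over both, 10 of 10 were lower, against 61.2% of all genes, and 6 fell, against 6.83%, with a median of −1.76. These 6 were H2-K1, B2m, Tap2, Psmb8, Psmb9 and Psmb10, a class I heavy chain, the class I light chain, a peptide transporter subunit and the 3 immunoproteasome subunits, with changes from −2.93 for B2m to −1.28 for Tap2. The number that fell was 1 when Saline_GR159897 replicate 3 was left out, 6 when DNBS_GR159897 replicate 1 was, and 3 when both were. All tested genes of the list were lower under both scalings.

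Averaged over both arms, markers of leukocytes were mostly higher after DNBS, where 2.76% of all genes passed as higher. Of 12 tested macrophage markers 11 were higher after DNBS and 4 rose, Lyz2 being the exception at −0.01 (Cd68 by 1.25, Mrc1 by 1.28, C1qc by 1.51 and Fcgr1 by 1.34), with a median averaged change of 0.98. The macrophage list summed to between 54.1 and 201 FPKM in DNBS_GR159897, 57.6 and 277 FPKM in DNBS_Vehicle, 48.5 and 58.5 FPKM in Saline_GR159897, against 71.8 and 119 FPKM in Saline_Vehicle. Of 4 tested general leukocyte markers all were higher and 2 rose, Laptm5, a lysosomal membrane protein, by 1.67 (adjusted p = 0.00925), and Fcer1g, an Fc receptor subunit, by 2.39 (adjusted p = 0.0215). Tyrobp, a signalling adaptor, was at 1.85 (adjusted p = 0.0654). Within single arms Cd68 rose in DNBS_Vehicle over Saline_Vehicle (2.03, adjusted p = 0.0343) and Laptm5 in DNBS_GR159897 over Saline_GR159897 (2.45, adjusted p = 0.0316). The general leukocyte list summed to between 38.3 and 98.2 FPKM in DNBS_GR159897, 43.8 and 149 FPKM in DNBS_Vehicle, 4.59 and 20.3 FPKM in Saline_GR159897, against 11.4 and 21.1 FPKM in Saline_Vehicle. All 6 DNBS libraries thus lay above all 6 saline libraries in that sum. All 3 tested neutrophil markers rose, S100a8, S100a9 and Retnlg, by 3.75 to 4.77. With Saline_GR159897 replicate 3 left out, 2 macrophage, 2 leukocyte and 3 neutrophil markers rose. With DNBS_GR159897 replicate 1 left out the numbers were 4, 3 and 1, and with both left out 3, 3 and 1.

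B cell markers summed to at most 0.02 FPKM in every saline library. They summed to 7.30 FPKM in DNBS_GR159897 replicate 1, to 2.08 FPKM in DNBS_Vehicle replicate 1 and to 0 in the other DNBS libraries. None of the 5 could be tested. Of the dendritic cell markers only Sirpa, which macrophages also carry, could be tested (1.02, adjusted p = 0.156), and Flt3 and Itgax were at most 0.18 and 0.40 FPKM in any library. Glial markers were lower: of 5 tested all had lower values and 2 fell, the transcription factor Sox10 at −2.98 (adjusted p = 0.0374) and the receptor Erbb3 at −1.18 (adjusted p = 0.0388). Over all genes 6.83% passed as lower in that average. Fabp7, a fatty acid binding protein, was at −1.71 (adjusted p = 0.114). By arm, the median of the 5 was −2.92 in DNBS_GR159897 over Saline_GR159897, with 1 call (Sox10 at −5.41, adjusted p = 0.0395), and −0.69 in DNBS_Vehicle over Saline_Vehicle, with 0 calls. All 5 were lower in each arm, and the difference between the arms was not tested for this list. Neither glial call was made without Saline_GR159897 replicate 3, without both libraries or under either scaling, and 1 was without DNBS_GR159897 replicate 1, while all 5 values stayed lower in each. The part of glial content, leukocyte content or library makeup in the class II values was not tested.

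The remaining cell types had no marker past the threshold. Of 4 tested epithelial markers 4 were higher, with a median of 1.25, or 0.35 without DNBS_GR159897 replicate 1. Krt18, Krt8 and Epcam were at 1.58, 1.28 and 1.15. Of 3 endothelial markers Cdh5 and Pecam1 were at 0.85 and 0.49 and the merged locus of Egfl7 at −0.02. Of 5 smooth muscle markers 1 was higher, with Cnn1, Tagln and Acta2 at −1.29, −1.26 and −0.51.

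**Figure D4:**
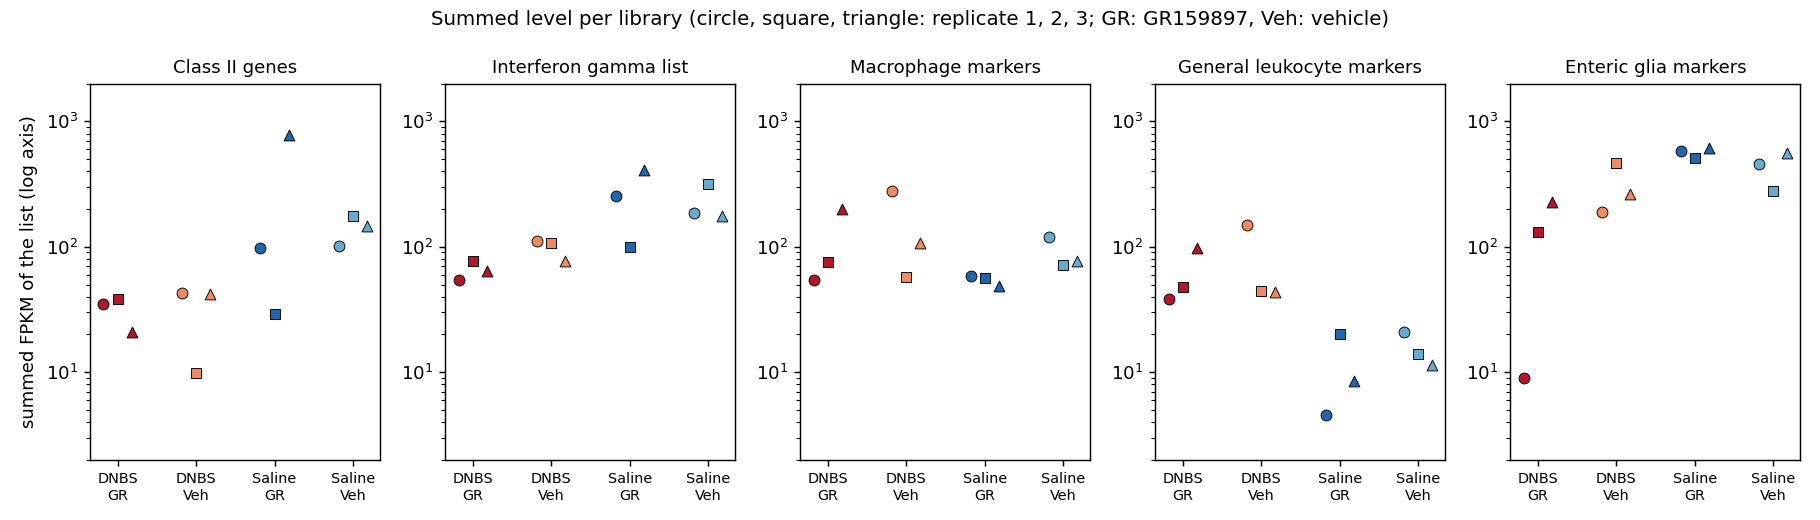
Summed FPKM per library, on a log axis, of the 7 class II genes, the interferon gamma list, the macrophage, general leukocyte and enteric glia markers (the last without Gfap), with DNBS_GR159897, DNBS_Vehicle, Saline_GR159897 and Saline_Vehicle from left to right. Each point is 1 library and its shape the replicate number. Saline_GR159897 replicate 3 is highest for class II (774 FPKM) and for the interferon gamma list (408 FPKM), and has 8.49 FPKM of general leukocyte markers.

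Genes most like the class II set were sought as a description, by Pearson's r of log2(FPKM + 1) with the mean standardised profile of the 6 tested genes over 12 libraries, which share their groups and makeup. The 8 with the highest r were Zhx2 (0.94), Psmb9 (0.93), Psmb10 (0.92), H2-T23 (0.91), Aldh1a7 (0.90), Ift81 (0.88), Htr3b (0.87) and Tgtp2 (0.87). Zhx2 is a zinc finger and homeobox factor, Psmb9 and Psmb10 are immunoproteasome subunits, H2-T23 is a nonclassical class I molecule, and Tgtp2 is an interferon-induced GTPase. Zhx2 had 0.97, 1.97 and 1.01 FPKM in DNBS_GR159897, 1.25, 1.02 and 1.13 FPKM in DNBS_Vehicle, 2.57, 1.51 and 4.85 FPKM in Saline_GR159897, against 2.43, 2.02 and 2.65 FPKM in Saline_Vehicle. Like the class II genes it was highest in Saline_GR159897 replicate 3, and its r without that library was 0.88. The 6 class II genes themselves had r of 0.84 to 0.92 with this profile, to which they contribute.

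Within groups, where deviations from the 4 group means were compared over the same 12 libraries, the closest were Gart (0.92), AI846148 (0.91), Zhx2 (0.87), the merged locus of Slc25a47 and Mir345 (0.87), Jph3 (0.86), Sptb (0.86), Thap4 (0.85) and Psmb9 (0.84). Zhx2 and Psmb9 were in both sets of names. By list, the median r with the class II profile was 0.73 for class I presentation, 0.69 for interferon gamma signalling, 0.37 for enteric glia, −0.43 for macrophages and −0.61 for general leukocytes. Over deviations within groups it was 0.47, 0.61, −0.07, −0.01 and −0.20 in the same order.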

How the data were processed

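The authors deposited FPKM values per assembled locus for 12 libraries, made with complementary DNA from 1 ng of RNA (SMART-seq v4, per the labels' protocols). Per the submitters' processing notes, the tools named, with no role or order, were StringTie 1.3, HISAT2 2.0, FastQC 0.10.1 and cutadapt 1.10. Sources used here do not give the genome build. FPKM keeps no depth, so no counting interval is given.

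Of 99547 loci, the 24432 with an annotated Ensembl transcript were used, 1 per name (24394 names). A merged locus was taken for a gene where no locus carried its name alone. Tests took the genes that reached 1 FPKM in 3 or more libraries (12777 genes; Gfap, blank in Saline_Vehicle, was left out) as log2(FPKM + 1), so fold changes of low genes are understated. One model with a coefficient per group (8 residual degrees of freedom) was fitted with limma 3.58.1 under R 4.3.3 (trended, robust prior), with two-sided tests and Benjamini-Hochberg adjustment over all genes. There were 6 comparisons. The steps were tested on simulated data with the same spread for every gene. That differs from these data, so it does not measure the error rate here. Tables and plots used numpy 2.4.6, pandas 2.3.3 and matplotlib 3.10.9 under Python 3.11.15.

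The genes, the lists and the tests were chosen with earlier results of these data known. All 7 genes are named. A list gene is named if it passed in any comparison or is among the 3 of its list with the smallest p in the averaged DNBS contrast, and 8 genes are named by likeness each way, predicted genes left out; cell markers at or near 0 are named beside the library they describe. Some genes that meet this rule are not reported here. The labels give separate samples, and p-values measure the spread between them, which may be technical in part. Alternatives were another pseudocount, other filters, a replicate block, a sex term, 2 scalings, library weights, no prior, summed loci, only the groups compared, and each library left out. Leaving out both libraries that stand apart was added after seeing the data.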

Additional observations from a re-analysis of the deposited data

Results flagged for a closer look

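The assembly holds 7 further loci that carry the name of one of these genes but no annotated transcript, and that were not tested. In 10 cases a DNBS library had at least 1 FPKM there and lay above all 3 Saline_Vehicle libraries. The locus named for Cd74 had 2.15 and 4.34 FPKM in DNBS_GR159897 replicates 1 and 2 and 2.86 FPKM in DNBS_Vehicle replicate 2, against at most 1.82 FPKM in Saline_Vehicle. DNBS_Vehicle replicate 2 is the library with 0.08 FPKM at the annotated Cd74 locus. With the loci summed, the Cd74 values of DNBS_GR159897 and Saline_GR159897 overlapped.

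Of 2 loci named for H2-Aa, one had 5.58 and 1.84 FPKM in DNBS_GR159897 replicates 1 and 2, and the other 10.5 FPKM in DNBS_GR159897 replicate 1. Both were listed at 0 in Saline_Vehicle. With these added to the annotated locus, H2-Aa had 20.9 FPKM in DNBS_GR159897 replicate 1, above 5 of the 6 saline libraries, and its averaged call was lost (adjusted p = 0.0783). Of 2 loci named for H2-Eb1, one had 5.64 FPKM and the other 6.32 FPKM in DNBS_GR159897 replicate 1, and both were listed at 0 in Saline_Vehicle. The locus named for H2-DMa had 3.01 FPKM in DNBS_GR159897 replicate 3, against at most 0.65 FPKM in Saline_Vehicle. The locus named for H2-DMb1 had 2.74 FPKM in DNBS_Vehicle replicate 1 and was listed at 0 in Saline_Vehicle. With that locus added, the H2-DMb1 values of DNBS_Vehicle and DNBS_GR159897 overlapped. Of the 10 cases 5 are in DNBS_GR159897 replicate 1, the library with 22.6% of its summed FPKM on annotated loci. No cause was tested.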

How the results depend on the processing

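Over the comparisons of DNBS with saline, the number of class II genes that passed was 2 of 6 in the average over both arms, where 9.6% of all genes passed. It was 1 with a pseudocount of 0.1 (6.88% of all genes), with the replicate block (7.72%), scaled to the annotated total (5.26%), with cyclic loess (9.42%) and without both libraries that stand apart (6.75%). It was 0 without a filter (more genes tested, 1.82%) and with all loci of a name summed (6.19%), 3 with a sex term (6.3%) and 4 with library weights (23.6%). It stayed at 2 with a filter of 6 libraries (10.3%) and without the prior (9.31%). With 1 library left out it ran from 0 without Saline_Vehicle replicate 3 (3.18%) to 6 without Saline_GR159897 replicate 2 (8.75%). In DNBS_Vehicle against Saline_Vehicle the number was 0, against 1 with only these 2 groups fitted (0.854% of all genes) and 1 without both libraries (0.96%). With 1 library left out it was 1 without Saline_GR159897 replicate 3 (0.278%) and otherwise 0. In DNBS_GR159897 against Saline_GR159897 it was 0, against 1 with library weights (16.9% of all genes). In the other comparisons it was 0 under each alternative. The cause was not tested where none is named.

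Over all genes 41, 176 and 1226 passed in the 3 DNBS comparisons in the order of the text. With 1 library left out the first was 0, 12 and 1 without Saline_Vehicle replicates 1, 2 and 3, 15, 20 and 26 without those of DNBS_Vehicle and 183 without DNBS_GR159897 replicate 1. The second ran from 4 without Saline_GR159897 replicate 1 to 601 without DNBS_GR159897 replicate 3, and the third from 402 without Saline_Vehicle replicate 3 to 1645 without DNBS_GR159897 replicate 3. The counts ran under the other alternatives from 13 to 514, 10 to 2158 and 442 to 3009. The correlation of deviations between same-numbered libraries ran from −0.09 to 0.20, which cannot show whether replicate numbers paired the libraries. With the replicate block H2-Aa passed (adjusted p = 0.0317) and Cd74 did not (0.0627).

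Directions reversed in values that did not pass. Without both libraries, DNBS_GR159897 against Saline_GR159897 gave H2-Eb1 0.60 and H2-DMb1 0.20, Saline_GR159897 against Saline_Vehicle H2-Aa −0.67, H2-Ab1 −1.02, H2-DMa −0.47 and H2-DMb1 −0.65, DNBS_GR159897 against DNBS_Vehicle H2-Eb1 0.52, and the interaction H2-DMa 0.086. With library weights Saline_GR159897 against Saline_Vehicle gave H2-Eb1 0.51, DNBS_GR159897 against DNBS_Vehicle H2-Eb1 0.25, and the interaction Cd74 −0.49 and H2-Eb1 −0.26. A sex term gave interactions of −0.23 for Cd74 and −0.056 for H2-Eb1. In DNBS_GR159897 against DNBS_Vehicle, scaling to the annotated total gave Cd74 0.21, H2-Eb1 0.35 and H2-DMa 0.077, cyclic loess H2-Ab1 0.11 and H2-Eb1 0.35, and summed loci H2-Eb1 0.86 and H2-DMa 0.15.

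With 1 library left out, changes crossed 0 for H2-Eb1 (−3.37 to 0.02) and H2-DMb1 (−1.63 to 0.14) in DNBS_GR159897 against Saline_GR159897. They did so in Saline_GR159897 against Saline_Vehicle for H2-Aa (−0.67 to 1.15), H2-Ab1 (−1.02 to 1.57), H2-Eb1 (−2.06 to 1.33), H2-DMa (−0.47 to 1.17) and H2-DMb1 (−0.65 to 1.12). In DNBS_GR159897 against DNBS_Vehicle this held for Cd74 (−1.97 to 0.22), H2-Ab1 (−1.34 to 0.74), H2-Eb1 (−0.57 to 0.52) and H2-DMa (−0.55 to 0.084). In the interaction it held for Cd74 (−1.12 to 1.23), H2-Aa (−0.048 to 1.77), H2-Ab1 (−2.10 to 0.50), H2-Eb1 (−1.40 to 2.00) and H2-DMa (−1.46 to 0.19). Where 2 libraries remain in a group, the shared spread stands in for theirs.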
